A study of Mus musculus with 3 samples.

Results

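The glycolytic enzymes described here are 10 genes of the pathway that turns glucose into pyruvate and lactate. They were chosen by symbol: Hk1, Gpi1, Pfkm, Pfkl, Pfkp, Aldoa, Pgk1, Pkm, Ldha and Ldhb. All 10 were found among the 32531 genes listed in each library. The libraries came from RNA bound to tagged ribosomes in the cortex-amygdala transition zone (CxA), where ventral cortex meets the amygdala. The 3 adult control mice carried the Lypd1-EGFP-L10a transgene of line OI82, which puts an EGFP-tagged ribosomal protein into cells that use Lypd1 regulatory DNA. They received no treatment, the tagged polysomes were captured with anti-EGFP antibodies, and the 3 immunopurified libraries form 1 group, called replicates 1, 2 and 3. The study's design names 3 mice and there are 3 libraries, but no label ties a library to a mouse, and the spread below is that between libraries. No unpurified tissue RNA was used here, so the values are levels in captured RNA. In such bulk RNA, fewer cells using a gene and less RNA per cell cannot be told apart.

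Glycolysis splits 1 glucose into a pair of pyruvate molecules in the cytosol and yields ATP without oxygen. Hexokinase and phosphofructokinase spend ATP at the entry of the pathway, and phosphoglycerate kinase and pyruvate kinase regain it near the end. Lactate dehydrogenase interconverts pyruvate and lactate, and its subunits are made in different proportions in different tissues and brain cells. Several steps are shared out among isozymes, so the balance of isozyme genes is a usual description of a tissue's glycolysis.

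Depth was 18526251, 24690301 and 8668527 assigned counts in replicates 1, 2 and 3. Levels are CPM, a gene's counts scaled to the library's total of counts assigned to genes, without length correction, and are given as mean ± SD over 3 libraries. Of all reads tallied in the files, 32.7%, 24.3% and 16.5% in replicates 1, 2 and 3 had several alignments, and these are in no gene's count. The 3 most abundant RNAs (Rn45s, Malat1 and Meg3) took 13.6%, 12.1% and 19.7% of the assigned counts, with Malat1 alone at 3.45%, 1.44% and 8.25%. Replicate 3 stood apart in further measures: 45.3% of its reads lay in no annotated feature, against 31.4% and 25.6% in replicates 1 and 2, and 19673 genes had a count, against 17196 and 17907, at the lowest depth. All 8 neuron markers on the list were detected, and their summed level was 11836, 17475 and 9342 CPM. All 8 astrocyte markers were detected too, summing to 1900.0, 1185 and 1210.0 CPM, and 7 of 8 oligodendrocyte markers, summing to 386, 233 and 226 CPM. Microglia markers summed to 25.1 to 41.1 CPM (4 of 8 detected, with C1qa at 0 counts in replicate 1), endothelial markers to 31.03 to 67.9 CPM (6 of 8 detected) and the 3 matched red blood cell markers to 11.2 to 14.5 CPM. The marker with the highest mean was Snap25 for neurons (9016 ± 3618 CPM), Slc1a2 for astrocytes (845 ± 94.9 CPM) and Mbp for oligodendrocytes (109 ± 32.8 CPM). In the other lists it was Cx3cr1 for microglia (19.8, 0.486 and 2.88 CPM in replicates 1, 2 and 3, so that 1 library set its rank), Slco1a4 for endothelium (10.6 ± 6.24 CPM) and Alas2 for red blood cells (9.32 ± 3.71 CPM).

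The isozyme transcripts could be told apart by their sequence, while 6 of the 10 enzymes share sequence with copies of themselves elsewhere in the genome. The coding sequences of Ldha and Ldhb, 999 and 1005 bases long, were 73.0% identical over 989 aligned bases. Their longest identical run was 18 bases, shown in capitals within 60 coding bases of each that span exons 6 and 7 of the principal transcript (GRCm38, chr7:46851962-46854009, plus strand, for Ldha and chr6:142492590-142494132, minus strand, for Ldhb):
Ldha: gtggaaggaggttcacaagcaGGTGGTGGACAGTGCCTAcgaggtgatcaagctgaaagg
Ldhb: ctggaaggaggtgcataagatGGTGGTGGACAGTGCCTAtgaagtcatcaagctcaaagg
The coding sequences of the 3 phosphofructokinase genes were 68.2% to 70.7% identical in pairs. The longest run common to all 3 was 17 bases, shown in capitals within 60 bases of exon 18 of Pfkm (chr15:98128230-98128289, plus strand) and exon 17 of Pfkl (chr10:77990196-77990255, minus strand) and Pfkp (chr13:6588543-6588602, minus strand):
Pfkm: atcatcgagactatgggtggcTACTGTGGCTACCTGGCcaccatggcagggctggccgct
Pfkl: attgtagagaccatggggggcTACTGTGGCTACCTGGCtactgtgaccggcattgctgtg
Pfkp: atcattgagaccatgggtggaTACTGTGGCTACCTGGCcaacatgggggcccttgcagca
No window of 31 bases was common to the coding sequences of any of the 6 isozyme pairs compared (0 shared windows each). Against that, the coding sequence of Pgk1 was found again in Pgk1-rs7, an annotated processed pseudogene on chromosome 12, with 0 differences over 1253 of its 1254 bases. The stretch from coding base 2 to 61 is shown to make that plain (chrX:106187252-106187311, plus strand, exon 1 of Pgk1, and chr12:10900181-10900240, minus strand):
Pgk1: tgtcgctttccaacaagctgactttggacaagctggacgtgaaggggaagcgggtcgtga
Pgk1-rs7: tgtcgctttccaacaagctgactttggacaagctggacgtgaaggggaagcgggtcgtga
The letters are the same throughout, so none is in capitals, and a read lying wholly within such a stretch has more than 1 place to align.

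Over each principal transcript (the longest that GENCODE marks as principal), the share of 31-base windows also found in an annotated transcript of another locus differed widely among the enzymes. It was 0% for Hk1 and Pfkm, 0.0729% for Pfkp and 0.838% for Pfkl. It was 32.6% for Gpi1, 35.04% for Aldoa, 35.1% for Ldha, 41.4% for Ldhb, 48.5% for Pkm and 68.3% for Pgk1. Within the coding part alone it was 47.9% for Aldoa, 50.3% for Gpi1, 54.1% for Ldhb, 62.7% for Ldha, 74.5% for Pkm and 100% for Pgk1. Ldha shared windows with 27 other genes, all 27 of them pseudogenes, while all shared windows of Ldhb were found in 1 pseudogene, Gm5514 on chromosome 19. The closest copies were Gm1840, a processed pseudogene, for Gpi1 (29.1% of its windows) and Aldoart1, an annotated protein-coding gene, for Aldoa (13.9%). The CPM of the 6 enzymes with copies therefore count uniquely placed reads only. How far each was lowered was not tested, since the read length was not given in the sources used here.

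**Figure D1:**
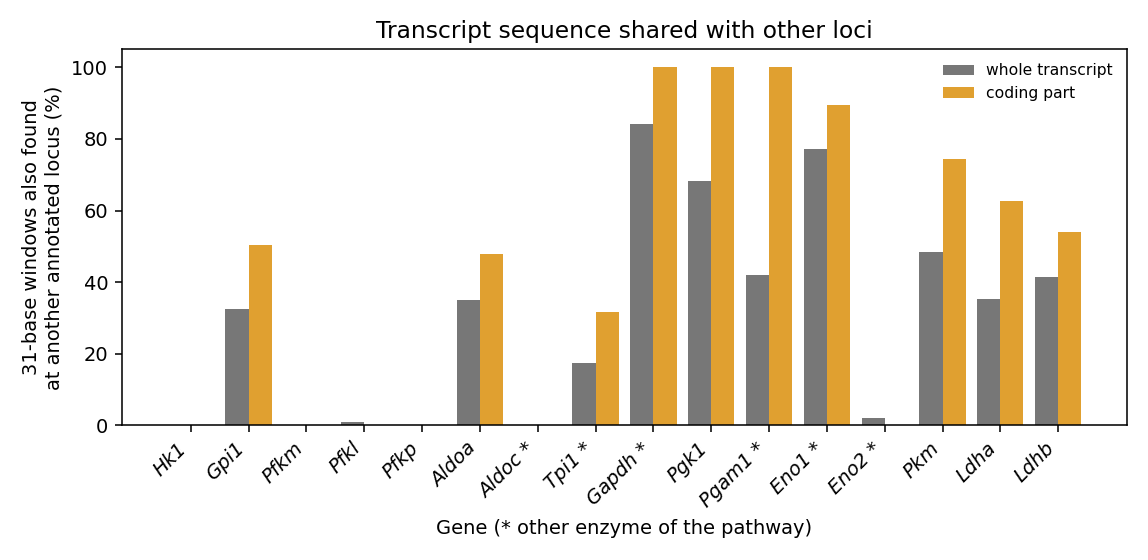
Bars give the percentage of 31-base windows of each gene's principal transcript (grey) and of its coding part (orange) that also occur in an annotated transcript of another locus, with other enzymes of the pathway marked by an asterisk. Hk1 and the phosphofructokinase genes lie below 1%, while Pgk1 reaches 68.3% of the transcript and 100% of the coding part.

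All 10 enzymes passed the detection level of 1 CPM in every library, beside 39.3% of all listed genes. Their levels ran from 21.5 ± 7.58 CPM for Pfkl to 510 ± 157 CPM for Aldoa. Together they took 0.183%, 0.212% and 0.144% of the assigned counts in replicates 1, 2 and 3, or 1831, 2117 and 1438 CPM. Per kilobase of all annotated exons, 4 of the 10 lay above the 95th percentile of the 11741 detected genes for which a length was found: Aldoa (99.4), Ldhb (99.0), Ldha (97.6) and Pkm (95.9). Pfkl was the only one below the median, at the 30.1st percentile.

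At the entry step, Hk1 lay above Hk2 in each library. Hk1, the hexokinase that phosphorylates glucose and docks on mitochondria (chromosome 10, 62268855 to 62379908, minus strand), measured 78.2, 100.3 and 78.1 CPM in replicates 1, 2 and 3, a mean of 85.5 ± 12.8. Replicates 1 and 3 were alike and replicate 2 was the higher. Hk2, the isozyme known for its induction by insulin and growth signals, measured 7.61, 1.78 and 3.69 CPM. It was highest in replicate 1, where the astrocyte, oligodendrocyte and microglia markers also summed highest, and their part in its level was not tested. Corrected for exon length, Hk1 exceeded Hk2 by 3.64 ± 0.99 on the log2 scale, 12.5-fold, in 3 of 3 libraries, with 6.44-fold, 25.5-fold and 11.8-fold in replicates 1, 2 and 3. The mean was 22.9-fold with the longest transcripts and 25.5-fold with the principal transcripts. Hk3 measured 0 to 1.27 CPM and Hkdc1 0 to 0.346 CPM, where a count of 0 allows up to 0.162 CPM in replicate 1 and 0.122 CPM in replicate 2 (3 counts, counting error only). Gpi1, the phosphoglucose isomerase of the next step (chromosome 7, 34201330 to 34230336, minus strand), measured 129, 205 and 150.3 CPM, a mean of 161 ± 39.1, again with replicate 2 the highest.

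Of the phosphofructokinase transcripts, Pfkm and Pfkp were the more abundant, with Pfkl below both. These genes encode the muscle, liver and platelet subunits of the enzyme, a tetramer whose activity is the main control point of glycolysis. Pfkm (chromosome 15, 98092589 to 98132451, plus strand) measured 81.8, 74.1 and 86.9 CPM and varied least of all 10, with a coefficient of variation of 7.93%. Pfkp (chromosome 13, 6579768 to 6648777, minus strand) measured 163, 206 and 201 CPM, a mean of 190.2 ± 23.3. Pfkl (chromosome 10, 77986947 to 78010083, minus strand) measured 13.4, 22.5 and 28.5 CPM, lowest in replicate 1, on counts of 249, 556 and 247. Against the spread between libraries of genes at like levels, this variation gave an adjusted p = 0.993 in edgeR's goodness-of-fit test. Corrected for the length of all annotated exons, Pfkm exceeded Pfkl by 2.92 ± 0.52 on the log2 scale (7.58-fold) and Pfkp exceeded Pfkl by 2.14 ± 0.37 (4.39-fold), each in 3 of 3 libraries.

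Which of Pfkm and Pfkp was the higher depended on the length used. With all annotated exons, 3340 bases for Pfkm and 13401 for Pfkp, Pfkm was the higher by 0.79 ± 0.24 on the log2 scale in 3 of 3 libraries. With the principal transcripts, 2879 and 4145 bases, Pfkp was the higher in 3 of 3 libraries and the same difference was −0.69 ± 0.24. Pfkm then made up 35.4 ± 4.11% of the summed phosphofructokinase level, Pfkp 57.5 ± 3.11% and Pfkl 7.10 ± 1.92%. With all exons these shares were 58.3 ± 4.61%, 34.1 ± 3.13% and 7.62 ± 2.18%. The low share of Pfkl was thus common to both lengths, and the order of the other pair was not. Of the windows of Pfkp 17.4% also lie in another annotated gene at the same place, where reads can be ambiguous.

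Aldoa was the most abundant of the enzymes, by CPM and with each length ranked here. Aldoa, the aldolase that splits fructose bisphosphate (chromosome 7, 126795234 to 126800751, minus strand), measured 583, 617 and 329 CPM. Replicates 1 and 2 were close, and replicate 3 lay lowest, at a level 1.87 times below the highest. Aldoc, the isozyme typical of astrocytes, measured 383, 195 and 152 CPM and was highest in replicate 1. In that library the 8 astrocyte markers also summed highest (1900.0 CPM against 1185 and 1210.0), and 7 of the 8 were at their highest there, with their part in the Aldoc level not tested. Corrected for exon length, Aldoa exceeded Aldoc by 1.29 ± 0.53 on the log2 scale, 2.44-fold, in 3 of 3 libraries, with 0.77, 1.82 and 1.27 in replicates 1, 2 and 3. With principal transcripts the difference was 2.01 ± 0.53. Counting only their windows found at no other locus as length, with all counts kept, it was 2.64 ± 0.53.

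Pgk1 was the enzyme with the widest spread. Pgk1, the phosphoglycerate kinase of the first ATP-yielding step (X chromosome, 106187100 to 106203699, plus strand), measured 28.5, 80.2 and 43.6 CPM, a mean of 50.8 ± 26.6. Replicate 2 was 2.81 times replicate 1, on counts of 1979 and 528. Against the spread between libraries of genes at like levels this variation was not called (adjusted p = 0.777, edgeR). As shown above, its coding sequence has an identical copy, and 569 of its 1795 windows were found at no other locus. Per kilobase of all exons its level was 22.6 ± 11.8 CPM, and per kilobase of the principal transcript 27.8 ± 14.6. Divided by those windows alone it was 89.2 ± 46.7 CPM. The last value uses all counts of the gene, not only reads within those windows. It is too high where reads partly in shared windows were counted, and how far was not tested. Its testis-specific isozyme Pgk2 had 0 counts in all 3 libraries.

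Pkm closed the ATP-yielding part. Pkm, the gene of the M1 and M2 pyruvate kinases (chromosome 9, 59656368 to 59679375, plus strand), measured 315, 269 and 205 CPM, a mean of 263 ± 55.2 with replicate 3 the lowest. The counts are per gene and do not separate M1 from M2. Pklr, the liver and red cell pyruvate kinase, measured 0.324 to 1.62 CPM.

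The order of the lactate dehydrogenase genes depended on the length used: Ldhb was the higher in 3 of 3 libraries per kilobase of all exons, while by CPM and with other lengths the order changed between libraries. Ldha, the muscle-type subunit usually associated with lactate production (chromosome 7, 46841475 to 46855627, plus strand), measured 208, 349 and 171 CPM, a mean of 243 ± 93.7. Ldhb, the heart-type subunit usually associated with lactate use (chromosome 6, 142490249 to 142507957, minus strand), measured 230.5, 195 and 144 CPM, a mean of 190.0 ± 43.3. Ldha was highest in replicate 2 while Ldhb was highest in replicate 1, and both were lowest in replicate 3. Corrected for all annotated exons, Ldhb exceeded Ldha by 0.77 ± 0.49 on the log2 scale in 3 of 3 libraries. With principal transcripts the difference was 0.13 ± 0.49, positive in 2 of 3 libraries, and Ldhb made up 59.98%, 43.1% and 53.3% of the summed level in replicates 1, 2 and 3. The annotated exons of Ldha cover 3310 bases, but its principal transcript is 1766 bases long, against 1570 and 1304 bases for Ldhb. The balance of the 2 subunit genes was thus near even with the principal transcripts, and its difference was smaller than the spread between libraries.

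The 6 isozyme pairs (Ldhb with Ldha, the 3 phosphofructokinase pairs, Aldoa with Aldoc and Hk1 with Hk2) were tested by flipping signs over the 3 libraries. With all annotated exons, this exact permutation test, two-sided, gave p = 0.25 for each pair (Benjamini-Hochberg adjusted p = 0.25 over the 6), which is the smallest p that 3 libraries can give. The design therefore cannot pass 0.05, and the statements above rest on the sign in each library and on the spread.

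**Figure D2:**
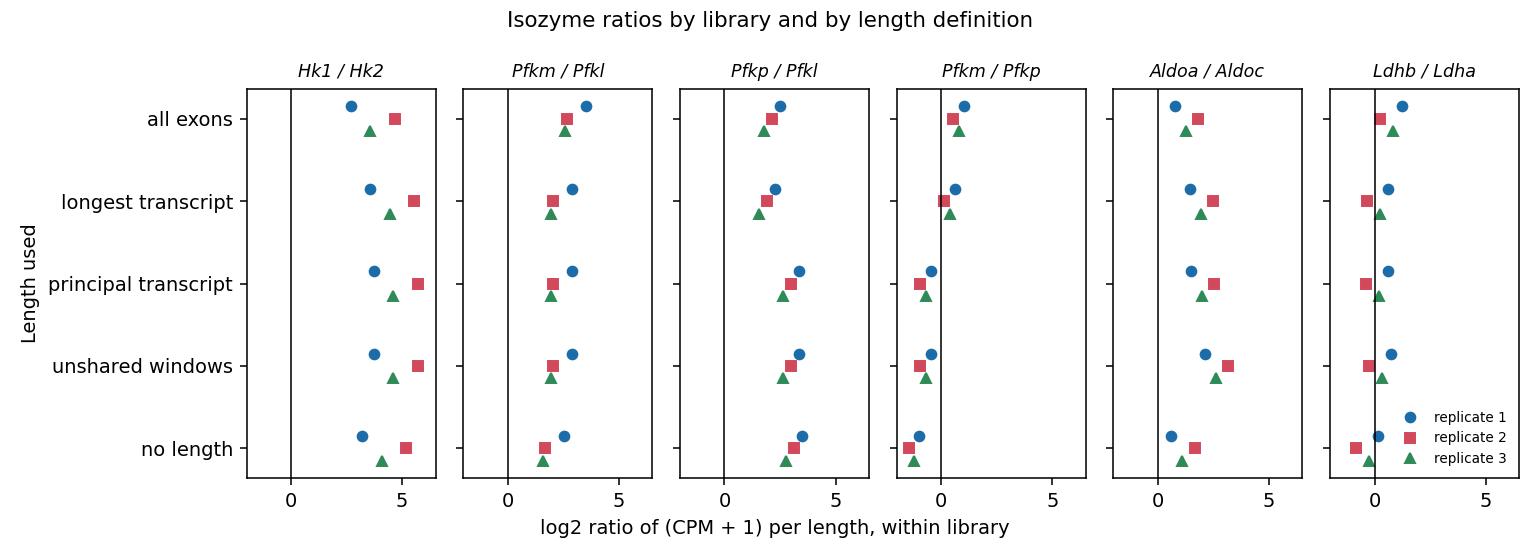
Points give the log2 ratio of (CPM + 1) per length within each library, for 6 isozyme pairs (columns) and 5 choices of length (rows). Hk1/Hk2, Pfkm/Pfkl, Pfkp/Pfkl and Aldoa/Aldoc stay right of 0 in each row, while Pfkm/Pfkp and Ldhb/Ldha cross it.

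Ranked by level per kilobase of all annotated exons, the order was Aldoa (175 ± 54.1 CPM per kb), Ldhb (121 ± 27.6), Ldha (73.3 ± 28.3), Pkm (52.6 ± 11.04), Gpi1 (24.98 ± 6.06), Pfkm (24.2 ± 1.92), Pgk1 (22.6 ± 11.8), Pfkp (14.2 ± 1.74), Hk1 (10.02 ± 1.497) and Pfkl (3.22 ± 1.14). Neighbours that did not differ beyond their spread were Ldha and Pkm, Gpi1 and Pfkm, Pfkm and Pgk1, and Pgk1 and Pfkp. With principal transcripts Aldoa stayed first and Pfkl last, Pfkp moved from the eighth to the sixth place, and Ldhb and Ldha no longer differed beyond their spread. Pgk1 was at rank 7 with all exons and at rank 8 with principal transcripts (27.8 ± 14.6 CPM per kb). With all its counts divided by the windows found at no other locus, Pgk1 was at rank 5, at 89.2 ± 46.7 CPM. It did not differ there from Gpi1 (83.8 ± 20.3) beyond their spread.

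**Figure D3:**
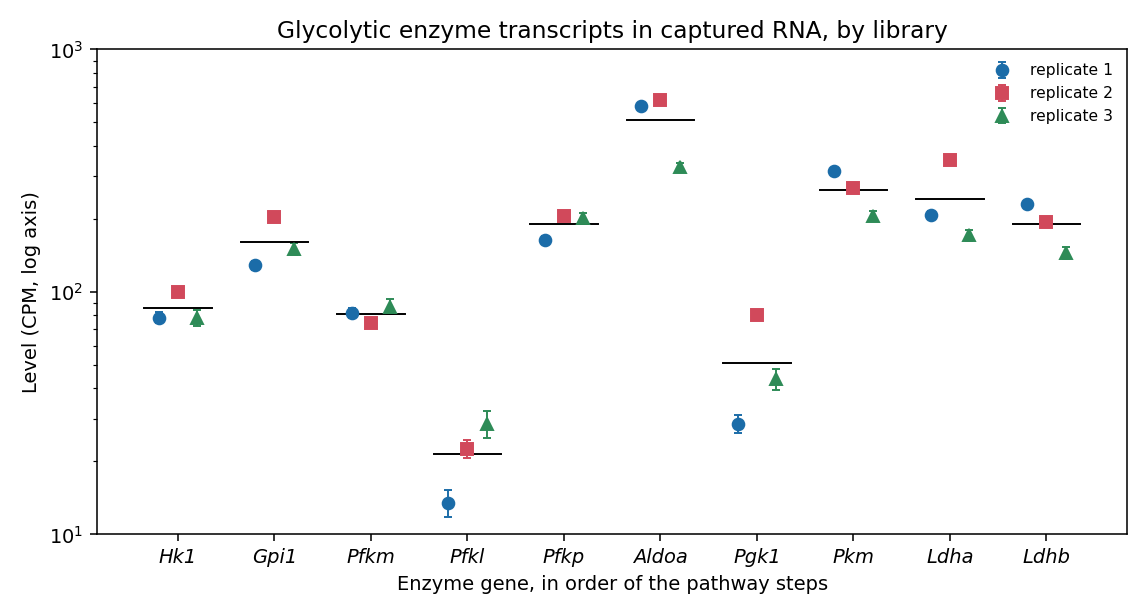
Points give the CPM of each enzyme in each library on a log axis, with 95% Poisson intervals that cover counting error only, and black lines give the mean of the 3 libraries. Aldoa is highest in each library, Pfkl is lowest in each, and Pgk1 shows the widest gap between libraries.

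The enzymes varied between libraries by amounts common among genes at like levels, with 6 of the 10 inside the quartiles of 18.9% to 40.5%. The coefficient of variation ran from 7.93% for Pfkm to 52.3% for Pgk1 with a median of 23.5%, beside a median of 28.7% over the 6915 genes with a mean between those of Pfkl and Aldoa. In edgeR's goodness-of-fit test of variation, 0 of the 10 enzymes were called at an adjusted p under 0.05, beside 0.209% of the 15336 genes tested. DESeq2 marked 0 of the 10 as dispersion outliers, beside 0.137% of the 15336 genes. With shares this low over all genes, a count of 0 among 10 says little about the enzymes. None had an unadjusted edgeR p under 0.05 either (0 of 10), and the share of all genes under that p was not computed. The smallest p was that of Pgk1, 0.0982 (adjusted p = 0.777, edgeR). Without replicate 3, Pgk1 had an unadjusted p of 0.0356 and an adjusted p of 0.607 (edgeR).

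Across libraries, 6 of the 10 enzymes were highest in replicate 2 (Hk1, Gpi1, Pfkp, Aldoa, Pgk1 and Ldha), beside 29.2% of all genes tested. Pkm and Ldhb were highest in replicate 1 (2 of 10, beside 31.6%) and Pfkm and Pfkl in replicate 3 (2 of 10, beside 39.2%). With TMM or DESeq2 scaling, 3 of the 10 were highest in replicate 1 and 1 in replicate 3, since Pfkm was then highest in replicate 1. The enzymes lowest in replicate 3 were Hk1, Aldoa, Pkm, Ldha and Ldhb (5 of 10, beside 27.5%), and the counting intervals of Hk1 and Pfkm in replicates 1 and 3 and of Pfkp in replicates 2 and 3 overlapped. Gpi1, Pfkl, Pfkp and Pgk1 were lowest in replicate 1 (4 of 10, beside 34.7%) and Pfkm in replicate 2 (1 of 10, beside 37.8%). The median deviation of the enzymes from their own means was −0.14, 0.18 and −0.10 on the log2(CPM + 1) scale in replicates 1, 2 and 3, beside −0.02, −0.07 and 0.10 for all genes tested. Of the neuron markers, 5 of 8 were highest in replicate 2 and 8 of 8 lowest in replicate 3. Of the endothelial markers, 5 of 8 were highest in replicate 2 and 5 of 8 lowest in replicate 3, with median deviations of 0.65 and −0.57 there. Lypd1, whose regulatory DNA drives the transgene, measured 232, 601 and 272 CPM. The part of these markers, of Lypd1 and of the no-feature and Malat1 shares in the enzymes' levels was not tested. With the total taken without the 3 most abundant RNAs, 5 of the 10 enzymes were highest in replicate 2, beside 25.9% of all genes tested, since Pfkp was then highest in replicate 3.

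**Figure D4:**
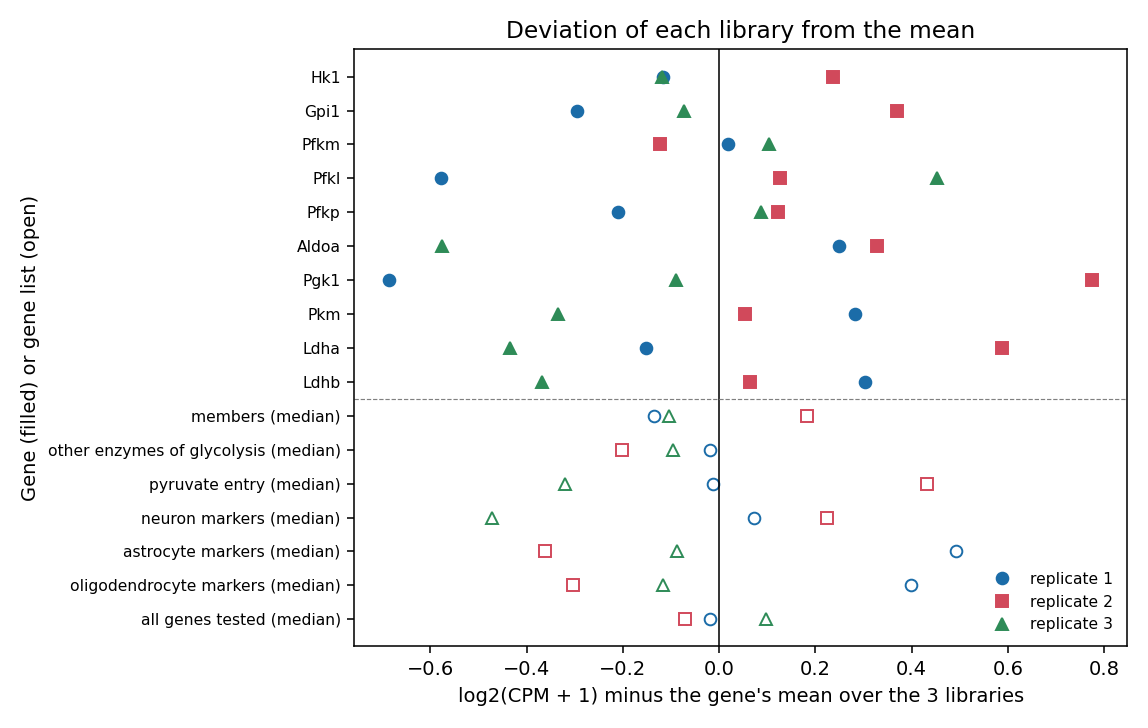
Filled points give each enzyme's log2(CPM + 1) in a library minus its mean over the 3 libraries, and open points give the median of the same over gene lists. Gpi1, Ldha and Pgk1 lie farthest to the right in replicate 2, at 0.37, 0.59 and 0.77, while Aldoa, Pkm, Ldha and Ldhb lie to the left in replicate 3.

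The other enzymes of glycolysis gave 13 of 19 genes detected, beside 39.3% of all listed genes. Of the 14 tested 0 were called as varying, beside 0.209% of all genes tested. Gapdh, the glyceraldehyde phosphate dehydrogenase, led with 1196, 1715 and 890 CPM, followed by the neuronal enolase Eno2 with 450.4, 660 and 464 CPM and by Aldoc. Gapdh has 84.1% of its windows at other loci, spread over 318 pseudogenes. Of the 4 matched fructose bisphosphate regulators 3 were detected, with Pfkfb2 at 108 ± 40.0, Pfkfb3 at 27.6 ± 16.7 and Pfkfb4 at 9.60 ± 3.02 CPM. These bifunctional enzymes set the level of the activator of phosphofructokinase. Of the 9 glucose and lactate carrier genes 7 were detected. The highest were the neuronal glucose transporter Slc2a3 at 95.7 ± 7.42 CPM, Bsg, the chaperone of the lactate transporters, at 94.1 ± 20.9 CPM, and Slc2a1, the transporter of the blood-brain barrier and of glia, at 33.1 ± 8.80 CPM. Of the lactate transporters, the neuronal Slc16a7 measured 19.8 ± 3.21 CPM, Slc16a1 6.37 ± 1.54 CPM and Slc16a3, known from astrocytes, 0, 1.05 and 0.346 CPM. None of the 8 carrier genes and 4 regulators tested was called as varying, beside 0.209% of all genes tested (0 of 8 and 0 of 4 by edgeR at an adjusted p under 0.05).

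The start regions of the enzymes were searched for ACGTG, 1 form of the core of the motif bound by hypoxia-inducible factor. That factor is known for raising glycolytic genes when oxygen is low. RefSeq start regions (GRCm38.p6, 250 bases before to 50 after each start) were matched for all 10 enzymes, giving 18 regions. ACGTG or its reverse complement CACGT was in 8 of the 18 regions and in 6 of the 10 enzymes, beside 19.6% of all 32851 regions and 21.8% of all 27025 genes. A CACGTG holds both forms and counts for each, and genes with several starts had more regions to match. A pair of Aldoa regions overlapped, and their matches were 1 and the same site. GC content of the 18 regions ran from 36.7% to 67.3%, and most of them lay above the median of 52.7% over all regions. The motif shares over all regions and genes were not matched for GC content, and its part in the matches was not tested. Ldha had the most matches, 5 in 1 region, so it is shown from 160 to 21 bases before its start (chr7:46845644-46845783, plus strand), with a part of the Pgk1 region (chrX:106186940-106186999, plus strand) and with the matches in capitals:
Ldha: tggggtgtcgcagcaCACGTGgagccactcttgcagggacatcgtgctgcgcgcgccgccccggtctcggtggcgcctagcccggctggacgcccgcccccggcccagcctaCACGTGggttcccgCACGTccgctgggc
Pgk1: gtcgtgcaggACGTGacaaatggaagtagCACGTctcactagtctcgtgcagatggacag
A match describes the letters alone, and no binding was measured in these libraries. Ldhb, Gpi1, Pfkl and Pfkp had no ACGTG or CACGT in their regions, and other forms of the core were not searched. Of the other motifs searched on both strands, GGGCGG, the GC box, was in 8 of the 18 regions (beside 35.7% of all), TGACGTCA, the cAMP response element, in 1 (beside 1.79%) and TATAAA in 0 (beside 13.6%).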

How the data were processed

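RNA from anti-EGFP captured polysomes was sequenced in 3 libraries of 1 group. The deposited files hold whole-number counts of reads per gene symbol, not normalized. The submitters' processing notes name STAR 2.0.0e, HTSeq and the build mm10. Annotation, strand setting, library kit and read length are not given in the sources used here, so sense and antisense reads cannot be told apart. Assigned counts were 8668527 to 24690301. The row without a gene name held 0 counts and stayed out, as did the HTSeq summary classes.

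CPM, exact Poisson intervals and sign-flip tests were computed in Python 3.11.15 (SciPy 1.17.1). Lengths and positions come from GENCODE M21 (GRCm38), where 88.8% of tested genes had a length. For Aldoa, a symbol of 2 annotated genes, the one with more exon bases was taken. Isozyme ratios are of CPM + 1 per kb, and log2 values understate differences of low genes. Variation was tested with edgeR 4.0.16 (TMM, intercept-only model, trended dispersion, Benjamini-Hochberg over the 15336 genes whose mean reached 1 CPM) and tested on simulated data. The edgeR p-values compare a gene's spread between libraries with that of genes at like levels. That usual spread was a trend fitted to the same 3 libraries. Sign-flip p-values concern the mean log2 ratio of an isozyme pair. The alternatives were other scalings (DESeq2 1.42.0), filters, dispersions, lengths and pseudocounts, and leaving out each library. The principal transcript and unshared window lengths, and the total without the 3 most abundant RNAs for the highest library, were added after seeing the data. No genome sequence was used here, so sharing was sought in annotated transcripts only.

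The members and lists were chosen with earlier results of these data known. Named are all members, their isozyme partners, the 3 most abundant genes of each pathway list and the most abundant marker of each cell type. So are the 3 genes nearest the members' median profile. Hk3, Hkdc1, Pgk2, Pklr, the closest copies, lactate transporters and the enolase and mutase genes were named after their values were seen. Of 101 list entries 3 were not matched.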

Additional observations from a re-analysis of the deposited data

How the results depend on the processing

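No paired analysis was possible because there was 1 group. Of the isozyme ratios, 2 of 6 changed sign with the length used. Ldhb minus Ldha was −0.31 ± 0.49 (log2) without length correction. Pfkm minus Pfkp was −1.22 ± 0.24 without length correction, −0.69 ± 0.24 with principal transcripts and −0.69 ± 0.24 with windows found at no other locus. These changes follow from the lengths alone. The other 4 ratios kept their direction under each alternative run. With all exons each of the 6 was positive in 3 of 3 libraries. All 6 therefore had to keep their direction with 1 library left out, where the test cannot give a p below 0.5. The number of genes called as varying was 32. It was 780 with a common dispersion and 21 as DESeq2 dispersion outliers. Leaving out 1 library gave 5 to 22, with 2 libraries in each fit. The cause of the difference by dispersion was not tested. No enzyme was called in any of these (0 of 10), beside 0.0323% to 5.09% of the genes tested. Under other scalings and with 1 library left out, 57 mean levels of single enzymes moved by less than the spread between libraries. For a library left out of 3 this was fixed in advance, since the mean cannot then move by that much. TMM and DESeq2 scaling keep the overall level, so they could move a mean only little. The 3 levels that moved further were Hk1, Pfkm and Pfkp at 100.6, 95.7 and 224.7 CPM with the 3 most abundant RNAs left out of the total. That total also set the median deviation of all genes at −0.04, −0.12 and 0.17 (log2) in replicates 1, 2 and 3. Depth limits low isozymes such as Hk3 and Hkdc1, with the floor of 3 counts at 0.346 CPM in replicate 3.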

Other observations

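Genes of pyruvate entry into mitochondria were all detected (13 of 13), and 9 of the 13 were highest in replicate 2 and 7 lowest in replicate 3, beside 29.2% and 27.5% of all genes tested. Dlat, the acetyltransferase subunit of pyruvate dehydrogenase, measured 168, 233 and 126 CPM, Pdk2, a kinase that inhibits the complex, 140, 174 and 91.5 CPM, and Pdp1, the phosphatase that reactivates it, 127, 85.7 and 93.9 CPM. None of the 13 was called as varying, beside 0.209% of all genes tested (0 by edgeR, smallest adjusted p = 0.942).

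Of the enolase genes, Eno1 was counted at 10.5, 11.2 and 18.6 CPM, with 77.2% of its transcript windows found at other loci. Eno2 measured 112 CPM per kb of exon and has 2.10% of its windows at other loci, while Eno1 measured 2.49 CPM per kb. The gap depended on the length used. Per kb of principal transcript Eno2 and Eno1 measured 188 and 6.61 CPM, and per kb of windows found at no other locus 194 and 29.5 CPM. Pgam1, the phosphoglycerate mutase, measured 35.4 ± 11.1 CPM with 42.1% of its windows shared, and every coding window of Gapdh, Pgk1 and Pgam1 was found at another locus (100% each). The part of these copies in the low counts was not tested.

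Among 2023 other genes whose mean reached 100 CPM, the 3 whose profile over the 3 libraries lay nearest to the median profile of the glycolytic enzymes were Slc25a23, Ap3d1 and Dock3, at distances of 0.041, 0.049 and 0.049 on the centred log2 scale. With 3 libraries this likeness is a description only.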
